A study of Mus musculus with 6 samples.

Results

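Sphingosine 1-phosphate (S1P) is a signalling lipid made when a sphingosine kinase phosphorylates sphingosine, the base released from ceramide. Endothelial cells (ECs) export it through a dedicated transporter, and it signals back to vessels through G protein-coupled receptors that set junction strength, barrier function and vessel tone. It is removed in one of 2 ways, by phosphatases that return it to sphingosine or by a lyase that cuts it irreversibly. The genes described here are 9 members of that route: the kinases Sphk1 and Sphk2, the receptors S1pr1, S1pr2 and S1pr3, the transporter Spns2, and the breakdown enzymes Sgpl1, Sgpp1 and Plpp3. They were read by 18 probe sets, every probe set annotated to a single symbol equal to a member, out of 45101 probe sets and 18194 genes on the array. The members were chosen with results of the same contrast in view. Their differences are therefore given as a description, and the counts of calls among them support nothing.

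The ECs were sorted from lungs of female NSG mice, an immunodeficient strain that lacks lymphocytes, injected at 6 to 8 weeks of age. Flow sorting kept CD31-positive cells and removed those with the cancer cells' GFP or with CD45, CD11b, EpCAM or CD140a/b, so the samples are an enriched bulk population. How many mice went into a sample is not given in the sources used here. The mice had received intravenous MDA-MB-231-LM2 cells, a lung-metastatic derivative of a human breast cancer line, and carried metastases of 3 weeks. In 3 samples the cancer cells expressed an shRNA against tenascin C (shTNC), an extracellular matrix protein, and in 3 samples a control shRNA (shControl). The comparison asks how the mouse lung ECs differ when the cancer cells in the lung make less tenascin C. The ECs came from digested lungs, so they need not lie close to cancer cells. No EC group from lungs without metastases enters it. The study reports that the knockdown also reduced colonization of the lung. Less tenascin C and a smaller metastatic load therefore cannot be told apart here. The shRNA acts in the human cells, so the mouse arrays hold no check of the knockdown, which the study measured by qPCR in the cancer cells. All arrays were hybridised to Affymetrix Mouse430_2 chips from amplified RNA, and values are RMA log2 levels. One log2 unit is a 2-fold change.

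Endothelial markers were bright in all samples, and so were some markers of cells that the sort was meant to remove. All 10 endothelial markers were above background, and their mean level spanned 13.51 to 13.53 in the shTNC samples and 13.50 to 13.58 in the shControl samples. Pecam1 differed by -0.03 ± 0.08 and Cdh5 by -0.04 ± 0.08 (log2, shTNC minus shControl, ± SE). Background was set at 7.48, a level that 95% of the 44 probe sets for olfactory receptors, taken as unexpressed, did not exceed. Of the markers that the sort used to remove other cells, some were read near background and the platelet-derived growth factor receptors clearly above it. Itgam, a myeloid integrin, was not above background, and Epcam, an epithelial adhesion protein, was at 7.54 to 7.81 in the shTNC samples and 7.45 to 7.92 in the shControl samples. Ptprc, the pan-leukocyte antigen CD45, was at 7.84 to 8.73 in the shTNC samples and 7.65 to 8.27 in the shControl samples. Pdgfra, a fibroblast receptor, was at 8.88 to 9.53 in the shTNC samples and 8.74 to 9.65 in the shControl samples, a difference of -0.01 ± 0.25. Pdgfrb, a pericyte receptor, differed by -0.01 ± 0.17. Surfactant transcripts were present, with Sftpc, an alveolar epithelial product, at 12.09 to 13.46 in the shTNC samples and 12.95 to 13.41 in the shControl samples. Other markers of removed cells were bright too, named after their values were seen. Lyz2, of the macrophage list, was at 11.59 to 12.55 in the shTNC samples and 12.02 to 12.47 in the shControl samples. It was the brightest of that list, in which Adgre1 was not above background. Cd68 of the same list was at 8.74 to 9.06 in the shTNC samples and 8.81 to 9.12 in the shControl samples. Col3a1, of the fibroblast list, was at 12.31 to 12.45 and 12.01 to 12.47. Among all arrays, shControl replicate 2 stood apart on the first principal component, with a score of -43.6 against -11.1 and 0.25 for the other shControl samples and 16.1 to 21.1 for the shTNC samples.

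Across the members nothing was called by limma's moderated test at an adjusted p under 0.05, and nothing was called elsewhere on the array (0% of probe sets). A robust trended variance called 9 probe sets, none of them a member. At an unadjusted p under 0.05, 3 member probe sets were higher in shTNC, one each of Sphk2, Sgpp1 and Plpp3, and 1 of Sgpl1 was lower. The same limit took 6.66% of all probe sets as higher and 6.3% as lower. The 3 shTNC values lay above all 3 shControl values for 5 of the 18 member probe sets, against 8.92% of all probe sets, and below all of them for 0, against 10.5%. Since the members were chosen on this contrast, nothing is read from these counts. The median difference of the 18 probe sets was 0.01, beside -0.01 over all probe sets, and 11 of them differed by less than 0.2. Among the 7 members read more than once, 4 carried readings of opposite sign. The 3 genes with probe sets that were higher by more than 0.2 without overlap, Sphk2, Sgpp1 and Plpp3, each had another probe set with overlapping groups.

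**Figure D1:**
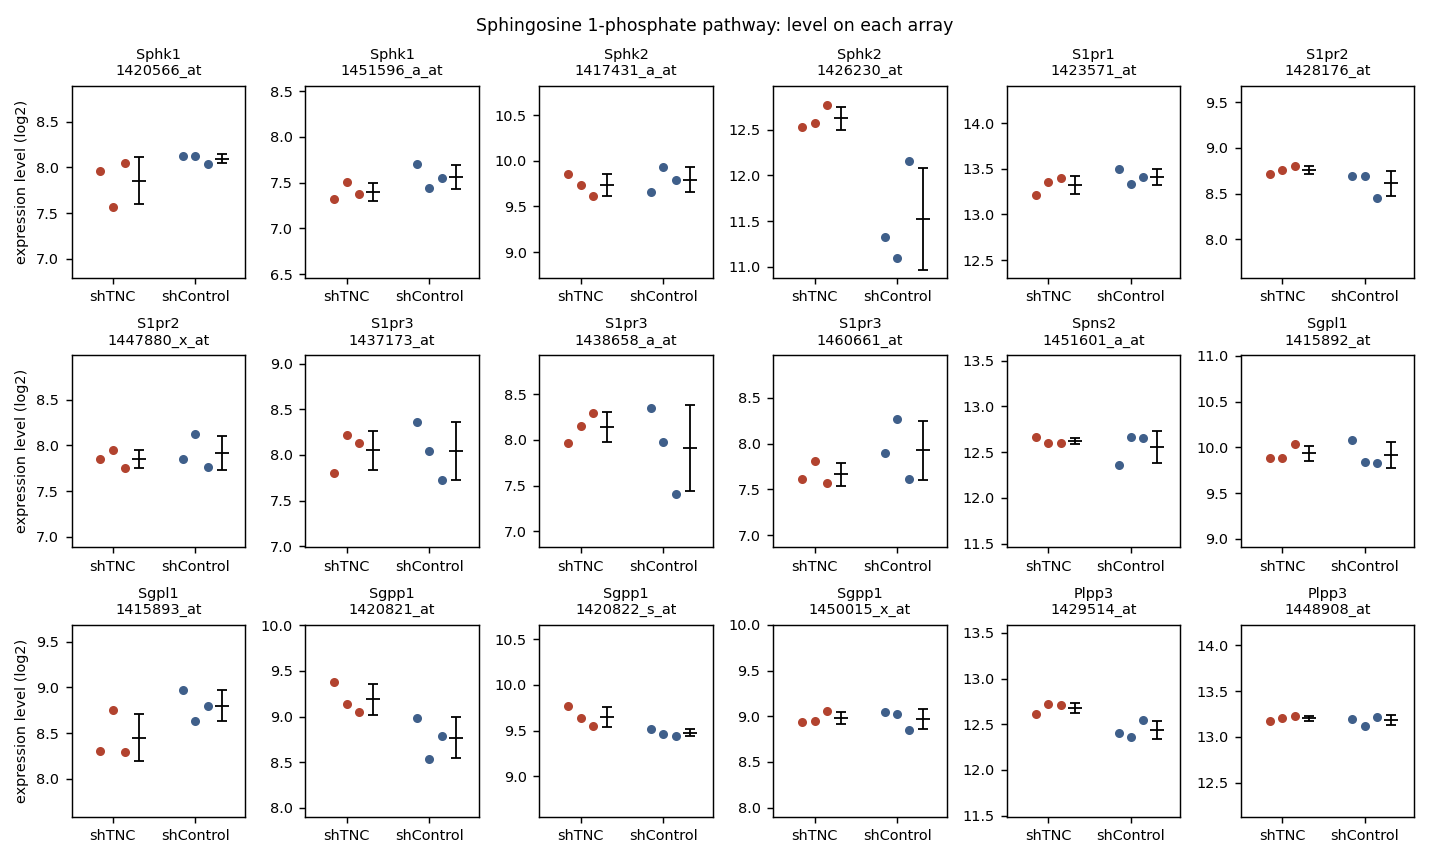
Log2 level of each of the 18 member probe sets on each array, 3 shTNC samples (red) left of 3 shControl samples (blue), with the group mean and SD as black bars; every panel spans the same height on the log2 axis. One Sphk2 probe set is separated by about a log2 unit, with shControl replicate 3 between the other shControl samples and the shTNC samples, and the remaining panels show small gaps or overlapping groups.

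Sphk2, Sgpp1 and Plpp3, the members with the largest differences in the higher direction among probe sets that separated the groups, are shown with the reference sequence around their transcription start, to place them on the genome. Each window runs from 250 bases before to 50 bases after the start, on the gene's own strand, from RefSeq on GRCm38.p6. Capitals mark matches on either strand to CACCC (the core recognised by KLF factors), GGGCGG (a GC box), CACGTG (an E-box) and CCGGAA (the core recognised by ETS factors).
Sphk2 (chr7:45717953-45718252, minus strand): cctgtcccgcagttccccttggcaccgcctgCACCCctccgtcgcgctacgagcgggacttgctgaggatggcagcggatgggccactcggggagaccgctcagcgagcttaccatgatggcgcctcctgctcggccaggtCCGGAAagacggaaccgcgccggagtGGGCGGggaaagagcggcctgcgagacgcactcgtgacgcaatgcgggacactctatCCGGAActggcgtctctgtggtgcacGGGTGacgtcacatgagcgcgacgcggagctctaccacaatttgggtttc
Sgpp1 (chr12:75735680-75735979, minus strand): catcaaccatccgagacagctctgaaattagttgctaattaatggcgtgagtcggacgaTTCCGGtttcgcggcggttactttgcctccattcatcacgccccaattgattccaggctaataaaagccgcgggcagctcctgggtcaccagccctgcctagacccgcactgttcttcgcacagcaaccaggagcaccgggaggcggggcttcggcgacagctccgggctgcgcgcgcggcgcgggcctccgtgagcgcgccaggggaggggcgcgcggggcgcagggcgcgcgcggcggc
Plpp3 (chr4:105157097-105157396, plus strand): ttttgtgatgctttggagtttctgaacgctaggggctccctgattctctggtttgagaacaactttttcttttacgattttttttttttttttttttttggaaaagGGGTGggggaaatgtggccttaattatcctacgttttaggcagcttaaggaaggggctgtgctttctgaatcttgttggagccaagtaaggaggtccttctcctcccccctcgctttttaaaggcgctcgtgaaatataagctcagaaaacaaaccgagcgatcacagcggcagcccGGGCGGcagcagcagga
Sphk2 has 2 windows, and the one at the outer end of the annotated gene is shown. It lies wholly within the ribosomal protein gene Rpl18 on the opposite strand, so its matches cannot be assigned to Sphk2 alone. The shown Sphk2 window held 2 KLF core, 1 GC box and 2 ETS matches. The Sgpp1 window held 1 ETS match, and the Plpp3 window 1 KLF core and 1 GC box match. None of the 3 shown windows held the E-box letters. The other Sphk2 window held 2 KLF core, 3 GC box and 0 ETS matches. Such matches are common: of 32851 promoter windows of the same length, 57.5% held the KLF core, 35.7% the GC box, 14.9% the ETS core and 7.15% the E-box. Windows were found for 8 of the 9 members, 13 windows in all, of which 9 held the KLF core, 6 the GC box, 6 the ETS core and 2 the E-box. Several of them are Sphk1 windows that overlap one another, so these are not counts of independent promoters. The 2 E-box windows are overlapping Sphk1 windows with the same site. No binding was measured here, and the matches describe only the letters in these windows.

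Sphk1 and Sphk2 are the 2 kinases that make S1P, the first mainly cytoplasmic and the second found largely in the nucleus and at internal membranes. Sphk1 lies on chromosome 11 (116530836 to 116536675). Its probe set 1420566_at read 7.96, 7.56 and 8.04 in the shTNC samples, against 8.13, 8.12 and 8.04 in the shControl samples, a difference of -0.24 ± 0.13. One shTNC sample was low and the groups overlapped. The other, 1451596_a_at, read 7.32, 7.51 and 7.37 in the shTNC samples and 7.70, 7.44 and 7.55 in the shControl samples, a difference of -0.16 ± 0.10. These values straddle the background level of 7.48, so Sphk1 was barely detected by this probe set.

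Sphk2 gave different readings from its 2 probe sets. Probe set 1426230_at read 12.53, 12.57 and 12.77 in the shTNC samples, against 11.33, 11.10 and 12.16 in the shControl samples. All shTNC samples were higher, they lay close together (SD 0.13), and the shControl samples were spread out (SD 0.56), with replicate 3 nearest to the shTNC samples. The difference was 1.09 ± 0.24, or 2.14-fold, the largest of any member probe set, and it ranged from 0.88 to 1.41 when each array was left out in turn. Probe set 1417431_a_at read 9.85, 9.74 and 9.61 in the shTNC samples and 9.66, 9.93 and 9.79 in the shControl samples. Its groups overlapped, with a difference of -0.06 ± 0.11.

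Sphk2 overlaps other genes on the opposite strand. It occupies 45709463 to 45718002 on the minus strand of chromosome 7 (GRCm38.p6). Its last 741 bases are shared with the last bases of Dbp, a circadian PAR bZIP transcription factor gene that runs on the plus strand from 45705100 to 45710203. At its other end Sphk2 shares 2536 bases with the ribosomal protein gene Rpl18. Dbp lies outside the pathway and was named after its values were seen. Its probe set 1438211_s_at read 12.50, 12.42 and 12.67 in the shTNC samples, against 11.12, 10.94 and 12.03 in the shControl samples, a difference of 1.17 ± 0.25. Its probe set 1418174_at read 12.29, 12.22 and 12.40 in the shTNC samples, against 10.48, 10.74 and 11.73 in the shControl samples, a difference of 1.32 ± 0.28. Both repeated the pattern of Sphk2 1426230_at, with shControl replicate 3 between the other shControl samples and the shTNC samples.

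Each probe set was then set at its own mean over the 6 arrays. The deviations of Dbp 1438211_s_at and Sphk2 1426230_at differed by at most 0.10 on any array, the closest match among the 45100 other probe sets. For Dbp 1418174_at the largest gap was 0.42, and for the second Sphk2 probe set it was 1.15. The next closest probe sets read Hlf (largest gap 0.20), Hspa1b (0.23), Igf2 (0.24), Per3 (0.24) and Tef (0.26), also named after their values were seen. Hlf and Tef are PAR bZIP factors of the same family as Dbp, and Per3 is a period gene of the circadian clock. Hspa1b encodes an inducible heat shock protein and Igf2 a growth factor. Which transcript Sphk2 1426230_at measures was not tested, as probe sequences were not used here, and its signal is uncertain as a measure of Sphk2.

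**Figure D2:**
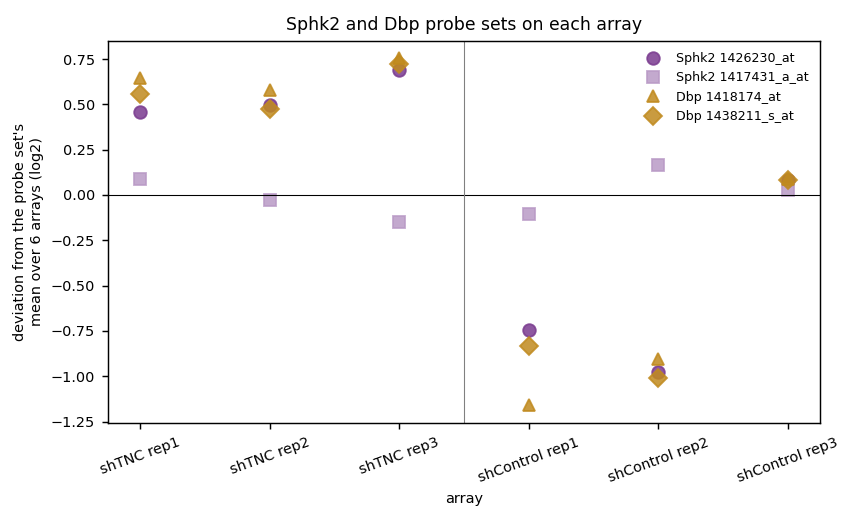
Deviation of 2 Sphk2 and 2 Dbp probe sets from their own mean over the 6 arrays (log2), with the 3 shTNC samples left of the line and the 3 shControl samples right of it. Sphk2 1426230_at and Dbp 1438211_s_at lie within 0.10 of each other on each array, whereas Sphk2 1417431_a_at stays near 0.

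On the 6 receptor probe sets the groups differed by at most 0.26 in either direction. S1pr1 (chromosome 3, 115710433 to 115715055), the main endothelial S1P receptor, couples to Gi and strengthens junctions. Its single probe set 1423571_at was bright, with 13.21, 13.36 and 13.39 in the shTNC samples and 13.50, 13.33 and 13.41 in the shControl samples. The groups overlapped and differed by -0.09 ± 0.09. S1pr2 (chromosome 9, 20965952 to 20976793) couples also to G12/13 and tends to loosen the barrier. Its probe set 1428176_at read 8.71, 8.76 and 8.80 in the shTNC samples, against 8.69, 8.69 and 8.45 in the shControl samples. The groups did not overlap, by a margin far smaller than their own spread, and the difference of 0.15 ± 0.10 fell to 0.07 without shControl replicate 3. The other S1pr2 probe set, 1447880_x_at, read 7.86, 7.95 and 7.75 in the shTNC samples and 7.86, 8.12 and 7.77 in the shControl samples, an overlapping difference of -0.06 ± 0.11.

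S1pr3 (chromosome 13, 51408618 to 51422797), a receptor of smooth muscle and endothelium that couples to Gq as well as Gi, was dim on all 3 of its probe sets. Probe set 1437173_at read 7.81, 8.22 and 8.13 in the shTNC samples and 8.36, 8.05 and 7.72 in the shControl samples, a difference of 0.01 ± 0.17. Probe set 1438658_a_at read 7.97, 8.15 and 8.30 in the shTNC samples and 8.35, 7.98 and 7.41 in the shControl samples, a difference of 0.23 ± 0.22. Probe set 1460661_at read 7.61, 7.81 and 7.57 in the shTNC samples and 7.90, 8.26 and 7.62 in the shControl samples, a difference of -0.26 ± 0.16. The groups overlapped on all 3, the signs were mixed, and no direction can be given for S1pr3. The shControl samples were spread over 0.64 to 0.94 log2 units on them, more than any of the differences. S1pr3 shares 10095 bases with the long noncoding gene Gm32834 on the opposite strand.

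Spns2, the transporter that carries S1P out of ECs, was bright and flat. Its probe set 1451601_a_at read 12.66, 12.60 and 12.60 in the shTNC samples, against 12.36, 12.66 and 12.65 in the shControl samples. The difference of 0.07 ± 0.11 came from shControl replicate 1 alone and was -0.03 without it. The end of Spns2 (chromosome 11, 72451638 to 72489976, minus strand) shares 133 bases with Mybbp1a, whose probe sets differed by -0.05 ± 0.08 and 0.00 ± 0.09.

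Among the breakdown enzymes, the 2 phosphatases had probe sets that were higher in shTNC samples and the lyase had one that was lower, each beside another probe set of the same gene that was flat. Sgpl1 (chromosome 10, 61098642 to 61147684) encodes the S1P lyase, which removes S1P for good. Its probe set 1415893_at read 8.31, 8.75 and 8.30 in the shTNC samples, against 8.97, 8.63 and 8.80 in the shControl samples, a difference of -0.35 ± 0.15. Replicate 2 of shTNC lay within the shControl range. Probe set 1415892_at had 9.88, 9.89 and 10.03 in the shTNC samples and 10.08, 9.84 and 9.83 in the shControl samples, and the difference was 0.01 ± 0.10.

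Sgpp1 (chromosome 12, 75714248 to 75735729) encodes an S1P phosphatase of the endoplasmic reticulum. Its probe set 1420821_at read 9.38, 9.14 and 9.05 in the shTNC samples, against 8.98, 8.53 and 8.79 in the shControl samples, a difference of 0.42 ± 0.14 or 1.34-fold. The groups did not overlap, although the lowest shTNC sample and the highest shControl sample lay close together. Probe set 1420822_s_at also had no overlap, with 9.77, 9.63 and 9.55 in the shTNC samples and 9.52, 9.46 and 9.45 in the shControl samples, and a smaller difference of 0.18 ± 0.09. Probe set 1450015_x_at did not separate the groups, with 8.93, 8.95 and 9.06 in the shTNC samples and 9.05, 9.02 and 8.85 in the shControl samples, a difference of 0.01 ± 0.09. Leaving out single arrays kept the first at 0.30 to 0.53 and the second at 0.12 to 0.23.

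Plpp3 (chromosome 4, 105157347 to 105232767), a lipid phosphatase of the plasma membrane that acts on lysophosphatidic acid as well as S1P, was bright on both probe sets. Probe set 1429514_at read 12.62, 12.72 and 12.71 in the shTNC samples, against 12.41, 12.36 and 12.54 in the shControl samples. All shTNC samples were higher, by 0.24 ± 0.09 on average or 1.18-fold, and by 0.21 to 0.30 with single arrays left out. Probe set 1448908_at read 13.17, 13.21 and 13.23 in the shTNC samples and 13.20, 13.12 and 13.22 in the shControl samples, an overlapping difference of 0.02 ± 0.08.

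**Figure D3:**
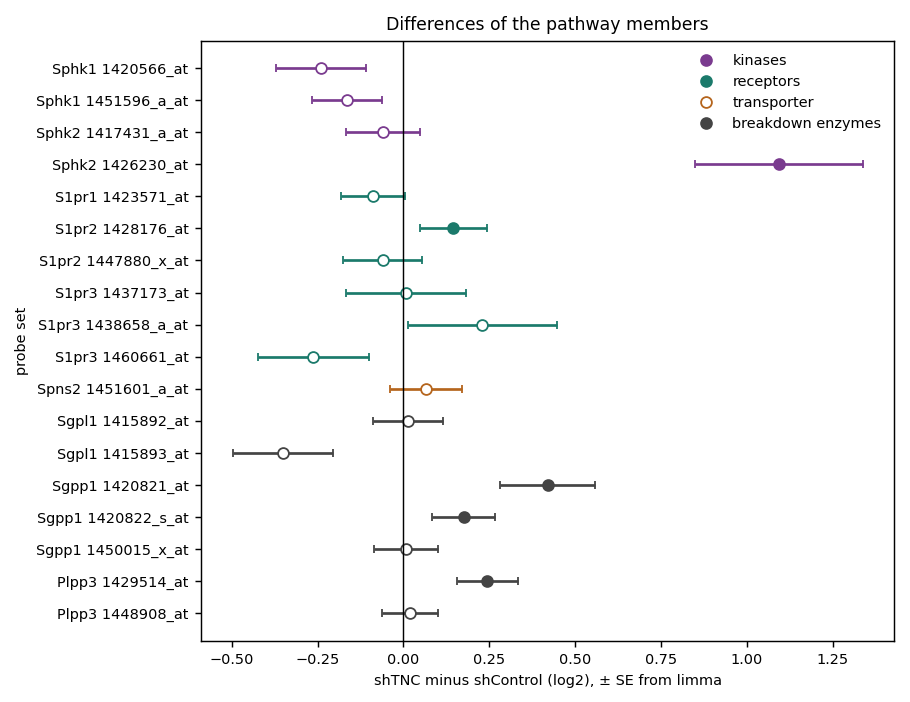
Difference between the group means, shTNC minus shControl (log2), for the 18 member probe sets from kinases at the top to breakdown enzymes at the bottom, with the SE from limma; filled points mark the 5 probe sets whose groups did not overlap. Sphk2 1426230_at lies at 1.09 and the others between -0.35 and 0.42.

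Some markers of other cells also differed between the groups, while others of the same lists did not. The mean of 10 pericyte and smooth muscle markers, all above background, was 8.91 to 9.15 in the shTNC samples and 8.80 to 8.90 in the shControl samples, without overlap. Without adjustment, 3 of them passed p under 0.05 as higher and 0 as lower. Myh11 was higher by 0.50 ± 0.10 and Cox4i2 by 0.39 ± 0.10, without overlap, and Des by 0.30 ± 0.12 with overlap. Pdgfrb of the same list differed by -0.01 ± 0.17. The mean of 8 fibroblast markers was 10.29 to 10.70 in the shTNC samples and 10.03 to 10.38 in the shControl samples, with overlap. Of these, 1 passed the same limit as higher, Gsn by 0.64 ± 0.20, while Pdgfra differed by -0.01 ± 0.25. The mean of 10 macrophage and monocyte markers was 8.56 to 8.84 in the shTNC samples and 8.87 to 8.98 in the shControl samples. Of these, Itgam and Adgre1 were not above background. The same limit took 2 as lower, Chil3 by -0.69 ± 0.21 with overlapping groups and Mrc1 by -0.62 ± 0.14 without overlap. Ptprc of this list differed by 0.32 ± 0.25. Of 3 erythroid markers, Hba-a1 was not above background, Alas2 was higher by 0.52 ± 0.13 and Slc4a1 differed by -0.38 ± 0.21, and their mean was 7.78 to 7.86 in the shTNC samples and 7.56 to 8.09 in the shControl samples. No lymphatic, platelet, epithelial or lymphocyte marker passed the unadjusted limit in either direction. Over 1 probe set per gene, the same limit took 4.54% of genes as higher and 7.12% as lower. Their part in the Sgpp1, Plpp3 and Sgpl1 differences was not tested. In sorted bulk samples, fewer cells of a type and less RNA per cell cannot be told apart.

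The genes around the pathway, taken from a list of 60 of which 54 matched a probe set and 49 were above background, held none called at an adjusted p under 0.05. Of the 54, 30 were below 0 and 24 above 0, with a median of -0.01, and without adjustment 4 passed p under 0.05 as lower and 0 as higher, beside the same 7.12% and 4.54% of all genes. Of these, 3 were from the ceramide synthesis and turnover group and 1 from the transport group. The ceramide group was mixed, with 12 of its 21 genes below 0, 9 above 0 and a median of -0.04. Cerk, the kinase that phosphorylates ceramide, read 11.07, 11.15 and 11.09 in the shTNC samples, against 11.68, 11.63 and 11.48 in the shControl samples. The groups did not overlap, and the difference of -0.49 ± 0.09 had a limma adjusted p of 0.184. Abca1, a lipid exporter reported to carry S1P in some cells, read 11.46, 11.69 and 11.75 in the shTNC samples and 11.95, 12.05 and 11.99 in the shControl samples, a difference of -0.36 ± 0.10 with a limma adjusted p of 0.255. Ugcg, which makes glucosylceramide, differed by -0.22 ± 0.08, and Asah2, a neutral ceramidase, by -0.20 ± 0.08, both without overlap between the groups.

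No other gene of the list passed the unadjusted limit, although some differed as much. Sgms2, a sphingomyelin synthase, differed by 0.31 ± 0.37 and Sgpp2, a second S1P phosphatase, by 0.23 ± 0.13, both with overlapping groups and both named after their values were seen. Rhoa, the GTPase downstream of S1pr2, differed by 0.21 ± 0.10, and Kdsr, a reductase of sphingoid base synthesis, by 0.15 ± 0.08, both without overlap between the groups. Cers2, a ceramide synthase, differed by 0.24 ± 0.12 and Gnaq, a G protein alpha subunit, by -0.19 ± 0.10, both with overlap. Rac1 (0.08 ± 0.08), Gna12 (0.11 ± 0.08) and Gna11 (0.05 ± 0.08) were also higher without overlap, and Sptlc2 lower (-0.13 ± 0.09). All of these were small and were named after their values were seen. Over all probe sets, 8.92% were higher and 10.5% lower without overlap, so nothing is read from such separations. Neither of the remaining receptors separated the groups: S1pr4 differed by 0.30 ± 0.25 and S1pr5, not above background, by -0.01 ± 0.10. Of 16 receptor signalling genes 8 were below 0 and 8 above 0, and Klf2, an endothelial flow-responsive factor, differed by 0.03 ± 0.18.

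**Figure D4:**
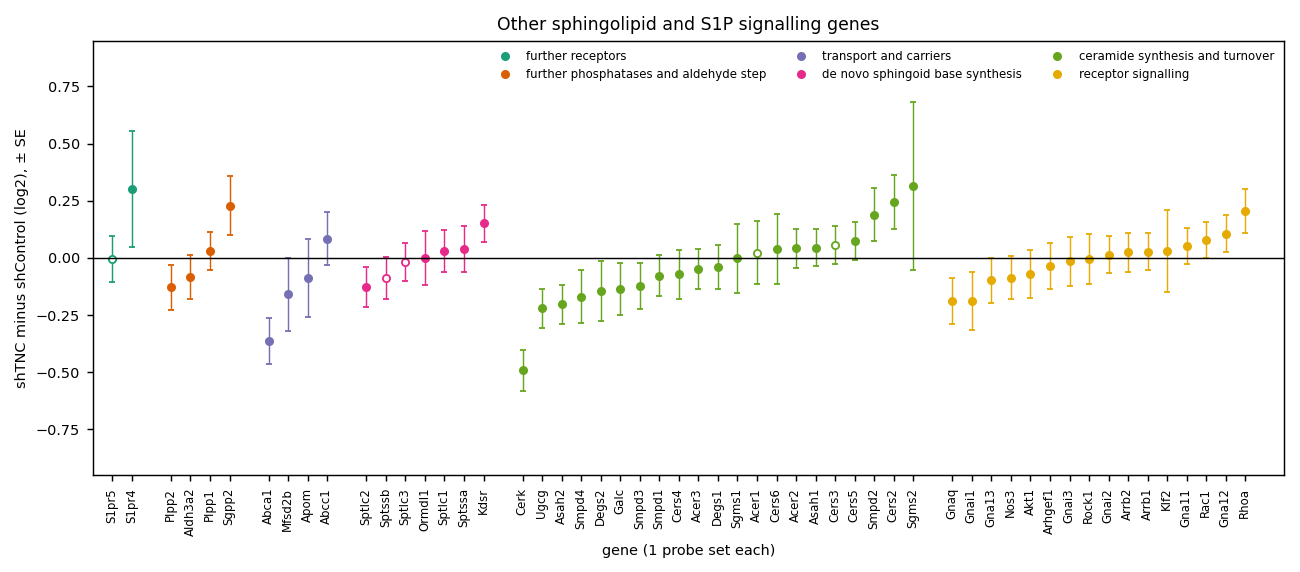
Difference shTNC minus shControl (log2) with SE for 54 further sphingolipid and S1P signalling genes, 1 probe set each, grouped by function and sorted within each group; open points are not above background. Cerk at -0.49 and Abca1 at -0.36 lie lowest, and Sgms2 at 0.31 has the widest error.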

How the data were processed

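Total RNA of sorted mouse lung ECs (3 shTNC and 3 shControl samples) was amplified from 2 ng and hybridised to Affymetrix Mouse430_2 arrays. The authors deposited RMA-normalized log2 values per probe set, which were used without further scaling; the study's methods name Chipster for this step. Probe sets were named from the platform annotation, and only probe sets with 1 symbol were named. Groups were compared with limma 3.58.1 (R 4.3.3; lmFit and eBayes) over all 45101 probe sets with Benjamini-Hochberg adjustment, and the code was tested on simulated data. Array number limits the precision. For other genes 1 probe set, the brightest on average, was used. The members and gene lists were chosen with earlier results of these data known. Named were all members, up to 8 further pathway genes above background with the smallest p, the sort markers, and up to 3 genes with the smallest p of each marker list set beside a member. The labels call the replicates biological. Deviations of same-numbered samples from their group means had correlations of -0.11, 0.04 and 0.14. Pairing by number was therefore not evident, but 3 samples per group cannot exclude it. Alternatives were other scalings, a background filter, array weights, a robust trended variance, a replicate block, means per gene and leaving out each array.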

Additional observations from a re-analysis of the deposited data

How the results depend on the processing

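Of the 18 member differences, 10 kept their sign whichever array was left out. No alternative called a member at an adjusted p under 0.05. Over all probe sets the count was 0, but 9 with a robust trended variance, and 0 to 4 with single arrays left out (2 without shControl replicate 1 and 4 without shControl replicate 3). The unadjusted calls of members changed with single arrays. The count of lower members was 0 with the replicate block and 0 to 1 without single arrays. Sgpl1 1415893_at was kept only without shTNC replicate 2 or shControl replicate 2. Without shControl replicate 3 the 1 lower member was S1pr3 1460661_at, and without shTNC replicate 3 it was Sphk1 1420566_at. Higher members numbered 2 to 3. Sphk2 1426230_at was among them whichever array was left out, Sgpp1 1420821_at was lost without shTNC replicate 1, and Plpp3 1429514_at was kept only without shTNC replicate 1 or shControl replicate 3. S1pr3 1438658_a_at joined them without shControl replicate 1. With the replicate block, which pairs samples by number only, the lower further pathway genes fell to 2, and without single arrays they numbered 2 to 4 (2 without shTNC replicate 1). Their higher count of 0 became 1 with means per gene, 2 with the robust trended variance and 0 to 2 without single arrays (1 without shTNC replicate 2, shControl replicate 1 or shControl replicate 2, and 2 without shControl replicate 3). The cause of these shifts was not tested.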
